A study of Ovis aries with 2 samples.

Results

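Transcripts of 10 genes of the Notch pathway were followed through the cell classes of the Hu sheep anterior pituitary, in 1 single-cell library from animals aged 3 months and 1 from animals aged 6 months. The genes were taken by their symbols from the 23141 genes of the deposited feature list, and all 10 were found there in both libraries: the receptors NOTCH1, NOTCH2 and NOTCH3, the ligands DLL1, DLL3 and JAG1, and the nuclear factors HES1, HES5, HES6 and HEY1. They were chosen by name, with earlier results of these data known. Both groups are Hu sheep without a stated treatment, and the anterior lobe was separated by its morphology and dissociated with collagenase. How many animals were pooled, and of which sex, is not stated in the labels. With 1 library per age, age cannot be told apart from library, preparation or animal, and no test between ages was possible.

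Notch receptors are membrane proteins that are activated by ligands on a neighbouring cell. Ligand binding leads to cleavage by ADAM proteases and gamma-secretase, and the released intracellular domain joins RBPJ and MAML coactivators to switch on target genes such as those of the HES and HEY families. HES1, HES5 and HEY1 are repressors that hold back differentiation genes, whereas HES6 is a family member known to oppose HES1 and to mark cells entering differentiation. In the pituitary the pathway is known for its part in keeping SOX2-expressing progenitor cells, and in blood vessels for arterial identity and mural cell differentiation.

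The 3-month library held 18961 barcodes and 142479651 UMIs (unique transcript molecules), and the 6-month library 15031 barcodes and 175239612 UMIs. Only 81 barcode sequences occurred in both (0.427% and 0.539%). After filtering, 15446 and 12683 cells with medians of 5022.5 and 9156 UMIs were analysed. As a measure of free RNA, hormone transcripts took 3.16% (3 months) and 10.5% (6 months) of the UMIs of endothelial-like and immune-like cells, where all cells together gave 27.2% and 36.5%. Cells were grouped into 31 clusters without using any Notch pathway gene, and clusters were named from marker genes. Of the 12 markers of stem or folliculostellate cells, none was at 0 in the class of that name. The classes were stem or folliculostellate-like (5974 cells at 3 months and 2713 at 6 months), gonadotroph-like (1625 and 357), somatotroph-like (1224 and 495), lactotroph-like (2680 and 5705), endothelial-like (1876 and 435), macrophage-like (1372 and 1731), T or NK-like (108 and 1011) and proliferating-like (109 and 51). These 8 classes had at least 50 cells in each library. Corticotroph-like cells (218 and 7), fibroblast-like cells (145 and 31) and B or plasma-like cells (19 and 144) reached that number in 1 library only, and no mural cluster could be named.

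Levels are summed UMIs of a gene in a class, divided by all UMIs of that class and given on the usual CPM scale with an exact 95% Poisson interval. Intervals here and below cover counting error only, and in summed counts fewer expressing cells and less RNA per cell cannot be told apart. A gene was called apart between libraries when it had at least 100 summed UMIs in the class, differed at least 2-fold on TMM-scaled totals, and reached 0.5 of its level over all cells in the library where it was higher. Log2 ratios are 6-month over 3-month. Ratios given without a cluster keep the TMM factors of the whole class.

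The classes differed widely in receptor transcripts. Stem or folliculostellate-like, endothelial-like, fibroblast-like and macrophage-like cells carried receptors together with HES1. In gonadotroph-like, somatotroph-like and lactotroph-like cells each of the 3 receptors stayed at or below 4.89 CPM. Within the receptor-rich classes the receptor differed: NOTCH2 and NOTCH3 in stem or folliculostellate-like cells, NOTCH1 in endothelial-like and macrophage-like cells, and NOTCH3 with NOTCH1 in fibroblast-like cells. Among classes, HES6 and DLL3 had their highest levels in endocrine ones, gonadotroph-like and somatotroph-like cells. However, 1 cluster of stem or folliculostellate-like cells, cluster 5, held more of both than these classes. HES6 stood there at 978 and 1072 CPM and DLL3 at 43.6 and 56.5 CPM.

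**Figure D1:**
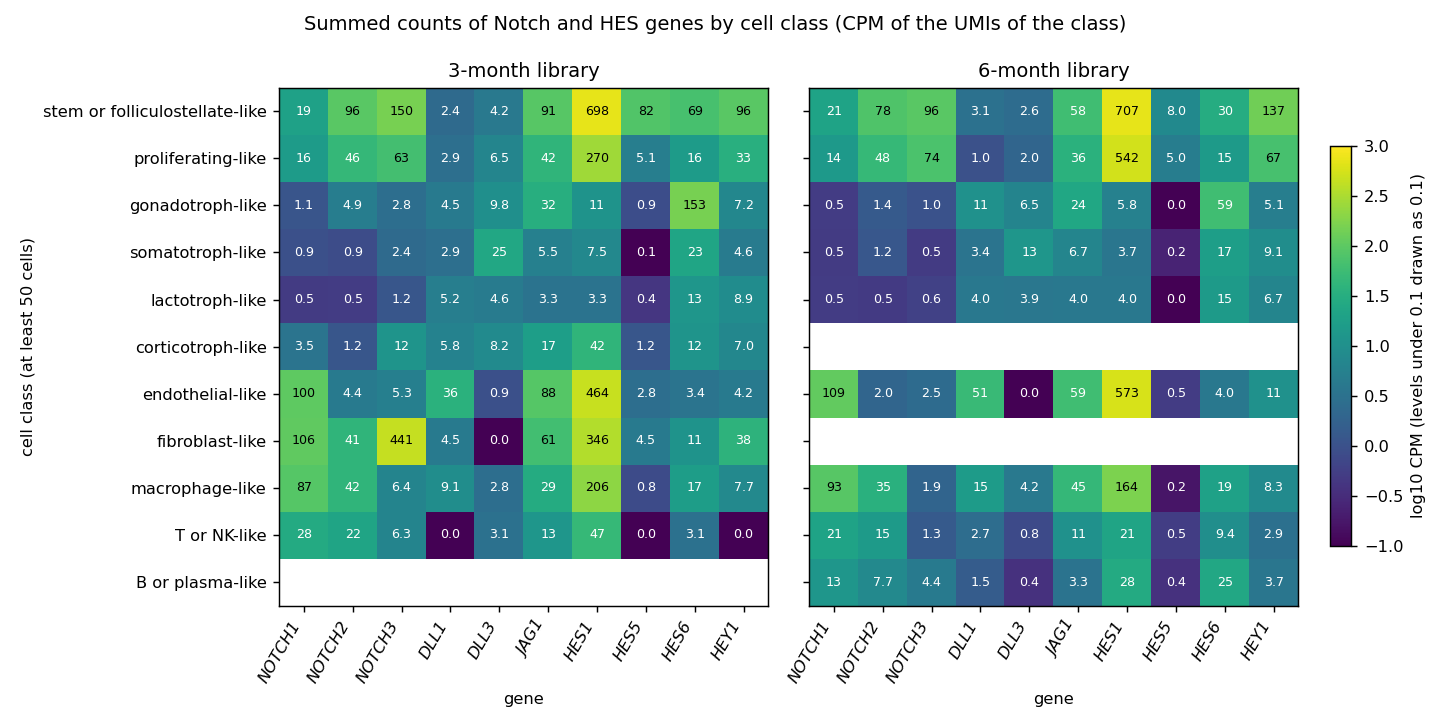
Levels of the 10 genes (columns) in each cell class with at least 50 cells (rows) in the 3-month library (left) and the 6-month library (right). Numbers in the cells are CPM, and the colour is log10 CPM with levels under 0.1 drawn as 0.1. HES1 is bright in the stem or folliculostellate-like row (698 and 707), while the HES5 cell of that row goes from 82.2 to 7.99.

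NOTCH1, a receptor best known from blood vessels and T cell development, stood at 100.3 CPM (92.6 to 108) in endothelial-like cells at 3 months and at 109 CPM (94.8 to 124) at 6 months. Macrophage-like cells followed at 87.1 CPM (79.8 to 94.8) and 92.7 CPM (87.3 to 98.3). Fibroblast-like cells reached 106 CPM (78.1 to 141) at 3 months, so these 3 classes overlapped in their intervals there, and endothelial-like and macrophage-like cells also at 6 months. Stem or folliculostellate-like cells lay well below, at 19.4 CPM (18.0 to 20.9) and 21.0 CPM (19.3 to 22.8). T or NK-like cells did not differ from them beyond counting error, at 28.2 CPM (12.9 to 53.6) and 21.1 CPM (16.7 to 26.3). Gonadotroph-like, somatotroph-like and lactotroph-like cells were at 1.12, 0.949 and 0.487 CPM at 3 months.

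NOTCH2 was highest in stem or folliculostellate-like cells in both libraries, at 96.1 CPM (92.9 to 99.4) and 77.8 CPM (74.5 to 81.2). Proliferating-like cells followed with 45.7 CPM (35.1 to 58.4) and 47.6 CPM (35.1 to 63.1). Macrophage-like cells, with 42.1 CPM (37.1 to 47.5) and 35.2 CPM (31.9 to 38.7), overlapped with them in both libraries. Fibroblast-like cells, whose cluster also carried mural markers, held 40.7 CPM (24.1 to 64.4) at 3 months, overlapping with macrophage-like cells. Endothelial-like cells were poor in this receptor, with 4.39 CPM (28 UMIs) and 2.02 CPM (4 UMIs).

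NOTCH3, the receptor known for its role in pericytes and vascular smooth muscle, was highest in fibroblast-like cells at 3 months, with 441 CPM (381 to 508) and a UMI in 64.8% of cells (median depth 2167 UMIs), against 1.85% of T or NK-like cells (2387 UMIs). That cluster also carried mural markers: RGS5 was found in 73.1% and PDGFRB in 72.4% of its cells at 3 months, and the 11 mural markers summed to 4312 CPM against 58.0 CPM in endothelial-like cells. At 6 months the cluster had only 31 cells, with 17 NOTCH3 UMIs (68.2 CPM, 39.8 to 109), a mural sum of 1076 CPM, and a lactotroph marker sum of 282363 CPM against 12240 CPM at 3 months. Their part in the lower NOTCH3 level was not tested. In stem or folliculostellate-like cells NOTCH3 stood at 150.0 CPM (146 to 154) and 96.3 CPM (92.6 to 100.03), and at 6 months their interval overlapped with that of the 51 proliferating-like cells (74.3 CPM, 58.5 to 93.2). Those cells held 63.1 CPM (50.5 to 77.8) at 3 months. Endothelial-like cells held 5.33 and 2.53 CPM.

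DLL1, a ligand of the Delta family, was highest in endothelial-like cells, at 36.3 CPM (31.8 to 41.3) and 50.6 CPM (41.2 to 61.6). Macrophage-like cells came next in both libraries, at 9.13 CPM (6.90 to 11.9) and 15.4 CPM (13.3 to 17.8), and overlapped with corticotroph-like cells at 3 months (5.83 CPM, 1.89 to 13.6) and with gonadotroph-like cells at 6 months (10.7 CPM, 8.23 to 13.7). Stem or folliculostellate-like cells held 2.39 CPM (1.91 to 2.95) and 3.10 CPM (2.48 to 3.83), below the level over all cells of 5.83 and 5.40 CPM.

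DLL3, a Delta ligand that is retained inside the cell and is known to dampen Notch signalling, was highest in somatotroph-like cells. It stood there at 24.8 CPM (21.9 to 27.96) at 3 months and 12.6 CPM (9.35 to 16.5) at 6 months. Gonadotroph-like cells followed at 9.83 CPM (8.40 to 11.4) and 6.46 CPM (4.57 to 8.87), overlapping with corticotroph-like cells at 3 months (8.17 CPM) and with macrophage-like cells at 6 months (4.17 CPM). Endothelial-like cells had 6 UMIs at 3 months and 0 at 6 months, where 3 counts would be 1.52 CPM.

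JAG1, a ligand of the Serrate family, was shared by several classes. At 3 months stem or folliculostellate-like cells (91.3 CPM, 88.2 to 94.5) and endothelial-like cells (88.0 CPM, 80.9 to 95.6) did not differ beyond counting error. At 6 months the same classes stood at 58.4 CPM (55.6 to 61.3) and 59.2 CPM (49.0 to 71.0). Among endocrine classes JAG1 stood out in gonadotroph-like cells, with 32.4 CPM (29.7 to 35.2) and 23.8 CPM (20.02 to 28.1), while somatotroph-like cells were at 5.50 and 6.65 CPM and lactotroph-like cells at 3.30 and 3.98 CPM.

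HES1, the most general Notch target of the family, was highest in stem or folliculostellate-like cells, at 698 CPM (690 to 707) and 707 CPM (697 to 717). A HES1 UMI was found in 70.4% of those cells at 3 months and 81.7% at 6 months. After thinning every cell to 2000 UMIs, which left out 902 and 282 of these cells, the shares were 56.3% and 62.7%. T or NK-like cells, taken as a low reference, gave 3.75% and 3.55% after thinning (median depth before thinning 2387 and 2735 UMIs, against 4531.5 and 5954 in stem or folliculostellate-like cells). Endothelial-like cells followed at 464 CPM (447 to 481) and 573 CPM (540 to 607). Fibroblast-like cells held 346 CPM (293 to 405) at 3 months. Proliferating-like cells held 270 CPM (243 to 298) at 3 months and 542 CPM (498 to 590) at 6 months, where they overlapped with endothelial-like cells. Macrophage-like cells came after these, at 206 and 164 CPM. Gonadotroph-like, somatotroph-like and lactotroph-like cells held 11.2, 7.50 and 3.32 CPM at 3 months.

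HES5, a Notch target known from neural progenitors, was by far highest in stem or folliculostellate-like cells at 3 months, at 82.2 CPM (79.3 to 85.3). The next classes were proliferating-like cells at 5.07 CPM (2.04 to 10.5) and fibroblast-like cells at 4.52 CPM from 2 UMIs. HEY1, a target of the related HEY family, was also highest in stem or folliculostellate-like cells, at 96.3 CPM (93.1 to 99.6) and 137 CPM (133 to 141). Proliferating-like cells held 33.3 and 67.4 CPM. Endothelial-like cells, where HEY1 is known from arteries of other tissues, held 4.23 CPM (2.79 to 6.15) and 10.6 CPM (6.58 to 16.3).

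HES6, the family member known to oppose HES1, had another order of classes. It was highest in gonadotroph-like cells, at 153 CPM (147 to 159) and 59.0 CPM (52.9 to 65.5), and second in stem or folliculostellate-like cells, at 68.7 CPM (66.0 to 71.4) and 29.98 CPM (27.97 to 32.1), where they overlapped at 6 months with B or plasma-like cells (25.1 CPM, 19.5 to 31.8). Each of these levels came mostly from 1 cluster. Without cluster 3, gonadotroph-like cells held 56.5 and 12.7 CPM, below the whole stem or folliculostellate-like class, and without cluster 5 the latter held 6.14 and 11.5 CPM. Somatotroph-like cells held 22.7 and 17.5 CPM and lactotroph-like cells 12.6 and 14.9 CPM. Under the looser and the stricter cell filter the class named gonadotroph-like held less HES6 and was no longer the highest. It held 62.4 and 63.3 CPM at 3 months and 11.9 and 12.9 CPM at 6 months. The class then had fewer cells, 1233 and 268 under the looser filter and 921 and 236 under the stricter. Unnamed cells rose from 96 and 3 to 3135 and 1986 under the looser filter and to 483 and 92 under the stricter. The part of this naming in the HES6 level was not tested. Endothelial-like cells were lowest among the classes with over 300 cells in both libraries, at 3.45 and 4.05 CPM. The class with the highest level was the same under all 6 alternative cell filters and clusterings for every gene except HES6 (4 of 6 in each library), JAG1 at 6 months (4 of 6) and DLL3 at 6 months (5 of 6).

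Between the libraries, stem or folliculostellate-like cells were the class in which all 10 genes were measured. Of these, 2 were called lower at 6 months and 0 higher, against 1.81% of 12630 measured genes called lower, 3.06% called higher and 4.87% called apart. The 2 lower genes were HES5 and HES6, a larger share of 10 than of all genes. However, HES6 depended on 1 cluster, and the 10 genes were chosen with earlier results of these data known. The median log2 ratio of the 10 was −0.49, beside −0.02 over all measured genes of the class.

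**Figure D2:**
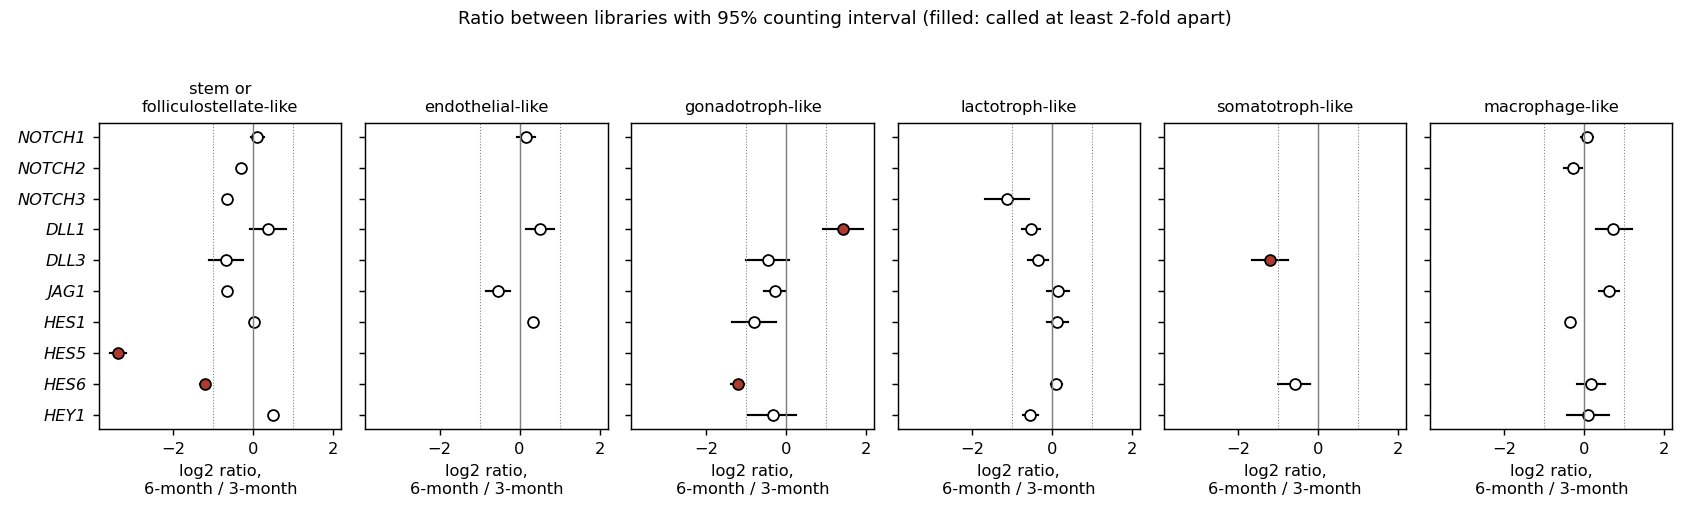
Log2 ratio of the 6-month over the 3-month library (x axis) for each gene (rows) measured in 6 classes (panels). Points are ratios on TMM-scaled totals, bars are exact 95% counting intervals, filled points are called, and dotted lines mark 2-fold. HES5 in stem or folliculostellate-like cells lies farthest from 0, at −3.38, while HES1 in the same panel lies at 0.00.

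HES5 had 2964 UMIs in 546 of 5974 stem or folliculostellate-like cells at 3 months and 219 UMIs in 156 of 2713 cells at 6 months. The levels were 82.2 CPM and 7.99 CPM (6.96 to 9.12), a log2 ratio of −3.38 (−3.58 to −3.18), or 10.4-fold lower at 6 months. Fewer cells had a UMI at 6 months and those cells had fewer UMIs each. The share of cells with a UMI after thinning was 5.64% (5.02 to 6.31) at 3 months and 1.89% (1.39 to 2.52) at 6 months. T or NK-like cells gave 0 of 80 cells, where 3 cells would be 3.75%, and 1 of 844 cells (0.118%). The ratio lay between −3.41 and −3.26 under the 14 alternatives tried. Among these, the changes of UMI minimum and of the all-cell condition cannot alter a ratio. The makeup of the class differed between libraries: cluster 22 made up 2.01% of the class at 3 months and 45.0% at 6 months, and clusters 2 and 8 made up 35.9% and 36.5% at 3 months and 9.07% and 12.1% at 6 months. HES5 was lower at 6 months within each of the 6 clusters. It went from 104 to 12.3 CPM in cluster 2, from 81.3 to 10.8 CPM in cluster 6, from 84.1 to 20.6 CPM in cluster 8 and from 48.6 to 3.50 CPM (2 UMIs) in cluster 19. In cluster 22 it went from 16.7 CPM (10.5 to 25.3) to 5.64 CPM (4.59 to 6.85). In cluster 5 it went from 43.6 CPM to 0 UMIs, where 3 counts would be 6.28 CPM, at least 6.94-fold lower.

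**Figure D3:**
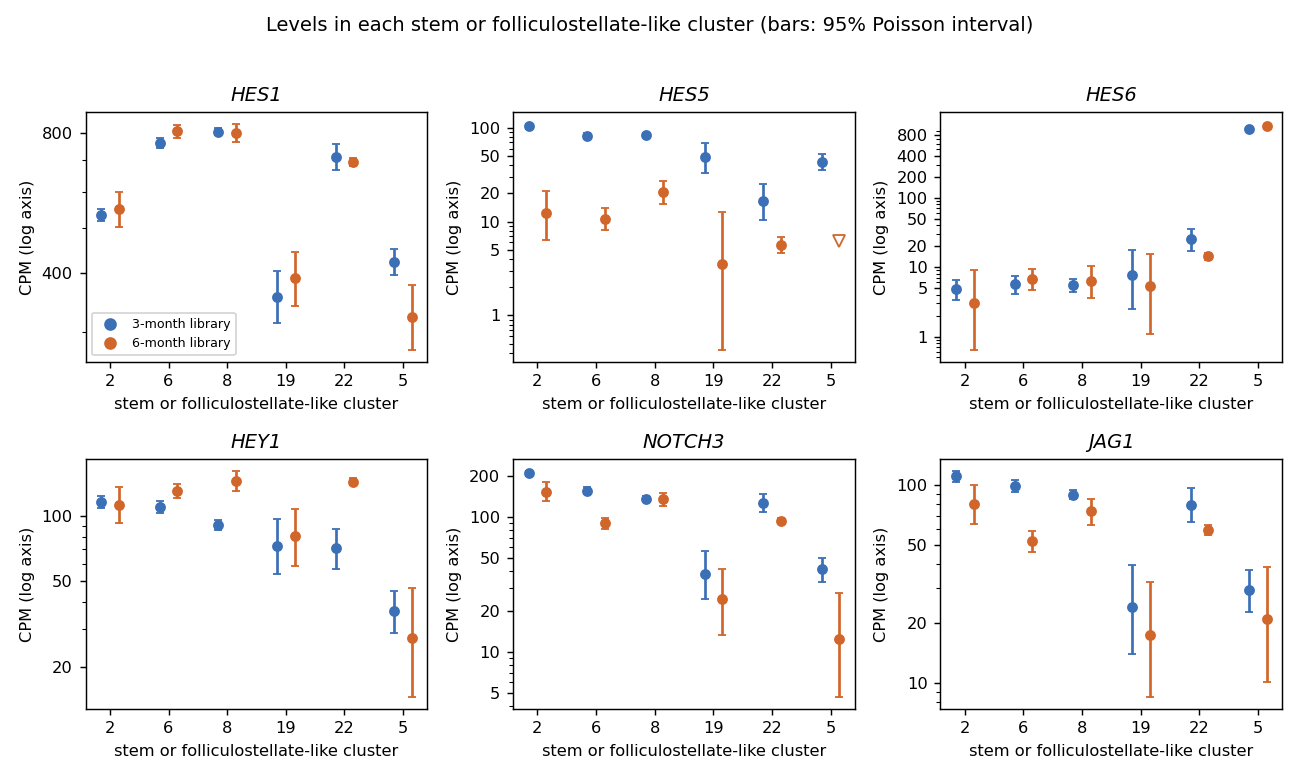
CPM on a log axis of 6 genes (panels) in the 6 stem or folliculostellate-like clusters (x axis) in the 3-month library (blue) and the 6-month library (orange), with 95% Poisson intervals. The open triangle is the level that 3 counts would give where HES5 had 0 UMIs. HES5 is lower at 6 months in each cluster, whereas HES6 is concentrated in cluster 5 in both libraries, at 978 and 1072 CPM.

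The other targets in stem or folliculostellate-like cells did not share this difference. HES1 had 25165 and 19385 UMIs and a log2 ratio of 0.00 (−0.02 to 0.03). HEY1 had 3471 and 3756 UMIs and was higher at 6 months by 0.49 (0.43 to 0.56), under the 2-fold limit. Within clusters, HEY1 went from 70.8 to 144 CPM in cluster 22 and from 90.9 to 146 CPM in cluster 8, but from 116 to 112 CPM in cluster 2, with overlapping intervals. HES1, HEY1 and HES5 thus had 3 different ratios in the same class.

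Receptors and JAG1 were moderately lower or alike in stem or folliculostellate-like cells at 6 months, and none was called. NOTCH3 had 5405 and 2640 UMIs, a log2 ratio of −0.65 (−0.72 to −0.59). JAG1 had 3290 and 1601 UMIs, a ratio of −0.66 (−0.75 to −0.57). NOTCH2 was at −0.32 (−0.40 to −0.24) and NOTCH1 at 0.10 (−0.06 to 0.26). NOTCH3 differed in size between clusters: it went from 157 to 89.9 CPM in cluster 6, but from 137 to 135 CPM in cluster 8. JAG1 went from 99.5 to 52.2 CPM in cluster 6 and from 89.5 to 73.7 CPM in cluster 8. DLL3 was at −0.68 (−1.10 to −0.26) on 150 and 72 UMIs, and DLL1 at 0.36 (−0.09 to 0.81) on 86 and 85 UMIs. Without cluster 5 DLL1 was called higher, at 1.78 (1.13 to 2.48) on 27 and 75 UMIs.

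HES6 in stem or folliculostellate-like cells came mostly from 1 small cluster. Cluster 5 held 323 cells at 3 months (5.41% of the class) and 70 at 6 months (2.58%), and its leading genes included KRT7 and SERPINA1, with HES6 and HES2 also among the first 10. No Notch gene had been used to form it, and its name rests on 6 of the 12 class markers (SOX2, SOX9, ALDH1A2, KRT8, KRT18 and EPCAM). HES6 stood at 978 CPM (938 to 1019) in cluster 5 at 3 months and at 6.14 CPM (5.33 to 7.04) in the other stem or folliculostellate-like cells. At 6 months the values were 1072 CPM (981 to 1168) and 11.5 CPM (10.3 to 12.9). Of 2475 and 822 HES6 UMIs of the class, 2268 and 512 lay in cluster 5. HES6 was called lower over the whole class (log2 −1.21, −1.32 to −1.10). Within cluster 5 the ratio was 0.13 (−0.01 to 0.27) and within cluster 22 it was −0.82 (−1.35 to −0.25). Without cluster 5 the ratio turned to 0.89 (0.63 to 1.15) on 207 and 310 UMIs. Yet within clusters 2, 6, 8 and 19 it was −0.64, 0.25, 0.21 and −0.53, with intervals that span 0. Cluster 22, with 25.1 and 14.2 CPM, made up 2.01% and 45.0% of the class. With the mean of per-cell CPM the ratio of the whole class was −0.75 and not called.

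Cluster 5 carried a different set of Notch genes from its class. It held more of the ligands DLL1 and DLL3 and of NOTCH1, and less of NOTCH2, NOTCH3, JAG1, HES1 and HEY1, in both libraries. DLL1 stood at 25.4 CPM (19.4 to 32.8) against 0.801 CPM (0.528 to 1.17) in the other clusters at 3 months, and at 20.9 CPM (10.04 to 38.5; 10 UMIs) against 2.78 CPM (2.19 to 3.49) at 6 months. DLL3 stood at 43.6 CPM (35.5 to 52.9) against 1.45 CPM, and at 56.5 CPM (37.2 to 82.2) against 1.67 CPM. NOTCH1 was at 45.7 against 17.6 CPM and at 56.5 against 20.3 CPM. These values are a description of 1 cluster and not a test.

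**Figure D4:**
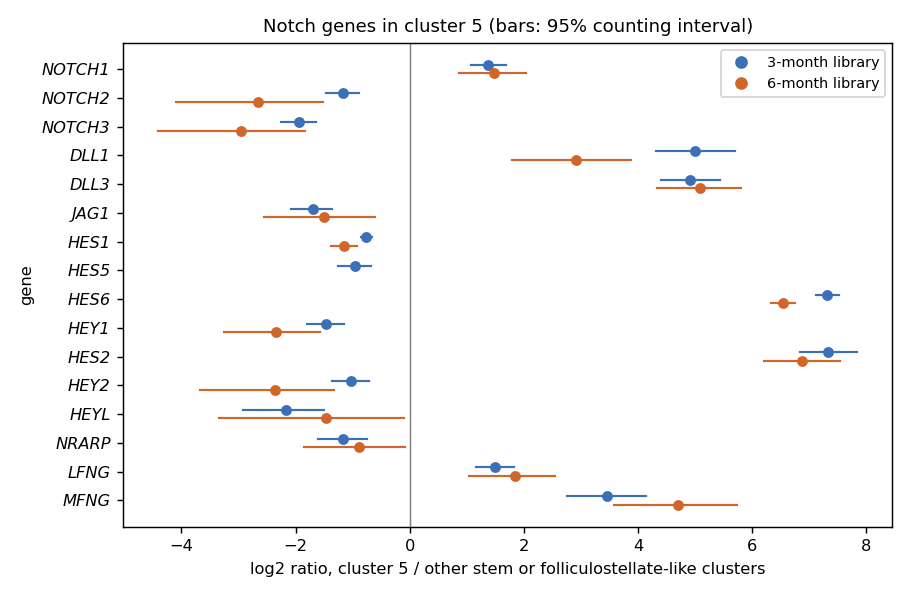
Log2 ratio of the level in cluster 5 to that in the other stem or folliculostellate-like clusters (x axis) for 16 Notch genes (rows) in the 3-month library (blue) and the 6-month library (orange), with exact 95% counting intervals. HES5, with 0 UMIs in cluster 5 at 6 months, is drawn for 3 months only. HES6, HES2, DLL1, DLL3, MFNG, LFNG and NOTCH1 lie to the right in both libraries, and the other genes to the left.

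HES1 was lower in cluster 5 than in the other clusters, at 423 CPM (397 to 451) against 717 CPM (708 to 726) at 3 months and at 322 CPM (273 to 377) against 714 CPM (704 to 724) at 6 months. NOTCH3 was at 41.0 against 157 CPM and at 12.6 CPM (6 UMIs) against 97.8 CPM. NOTCH2 was at 44.4 against 99.7 CPM and at 12.6 against 79.0 CPM, so both receptors of the class were low in this cluster. JAG1 was at 29.3 against 95.6 CPM and at 20.9 against 59.1 CPM, and HEY1 at 36.2 against 100.5 CPM and at 27.2 against 139 CPM. Among genes of the pathway outside the 10, HES2, a further HES repressor, was at 181 against 1.13 CPM and at 130 against 1.11 CPM. MFNG and LFNG, glycosyltransferases that tune which ligand a receptor answers to, were also higher, MFNG at 14.2 against 1.31 CPM and 25.1 against 0.965 CPM. NRARP, a feedback inhibitor, was at 21.1 against 47.3 CPM and at 25.1 against 46.6 CPM.

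Pairs of members were also counted in single cells of the class. Most HES6 UMIs lie in cluster 5, so these counts are not independent of the cluster values. After thinning to 2000 UMIs, 229 of 5072 stem or folliculostellate-like cells had HES6 and 2858 had HES1 at 3 months. Both were seen in 67 cells, where the product of the shares gives 129. NOTCH3 and HES6 were seen together in 18 cells beside 58.6 from the product, and NOTCH2 and HES6 in 13 beside 39.2. The ligands DLL1 and DLL3 went the other way. DLL1 and HES6 were seen together in 12 cells beside 1.17, and DLL3 and HES6 in 22 beside 1.62. By contrast, NOTCH2 and NOTCH3 (264 beside 222), NOTCH3 and JAG1 (254 beside 214) and NOTCH3 and HES1 (724 beside 731) lay within 1.19 times the product. At 6 months HES1 and HES6 were seen together in 39 of 2431 cells beside 52.7, and NOTCH3 and HES6 in 6 beside 14.4. Cells of 1 library are not replicates, so these counts describe the libraries only.

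In gonadotroph-like cells, which make the hormones LH and FSH, 6 of the 10 genes were measured. DLL1 was called higher and HES6 lower at 6 months, against 2.82% of 10412 genes called higher, 3.91% called lower and 6.73% called apart. HES6 had 2596 and 347 UMIs (log2 −1.21, −1.37 to −1.04), and DLL1 had 76 and 63 UMIs (log2 1.43, 0.92 to 1.93). Both calls were lost without cluster 29, which is led by IGFBP1 and NPPC and held 1 cell at 3 months and 144 of 357 cells at 6 months. DLL1 stood at 16.5 CPM (12.5 to 21.5) in cluster 29 against 3.13 CPM (1.35 to 6.16) in the other gonadotroph-like cells at 6 months, and HES6 at 7.82 CPM (5.11 to 11.5) against 125 CPM (112 to 140). Without cluster 29 HES6 was at −0.12 (−0.29 to 0.05), and DLL1 had too few UMIs to be measured. That HES6 ratio rests on TMM factors computed with cluster 29 included. On plain totals HES6 stood at 153 CPM (147 to 159) in the class at 3 months, with its 1 cell of cluster 29. The 6-month level without cluster 29 was 125 CPM (112 to 140), and these intervals do not overlap. Without cluster 3, in contrast, HES6 was still called lower, at −1.98 (−2.37 to −1.61), and DLL1 higher, at 1.65 (1.09 to 2.21). Within clusters, on library totals, HES6 was at −1.31 (−1.81 to −0.84) in cluster 15 and at −0.24 (−0.43 to −0.06) in cluster 3. HES6 was also lost as a call with the mean of per-cell CPM, at −0.78. It was at −2.23 and −2.13 under the looser and the stricter cell filter, where fewer cells were named gonadotroph-like.

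Among gonadotroph-like clusters HES6 was concentrated in cluster 3, led by EGR4, SPHKAP and SCGN. None of the gonadotroph markers was among the first 10 genes of that cluster, whose name rests on 6 of them (LHB, GNRHR, CGA, TGFBR3L, FOXL2 and GATA2) and not on FSHB. It stood there at 431 CPM (412 to 451) in 575 cells at 3 months and at 364 CPM (322 to 409) in 94 cells at 6 months. The hormone-rich cluster 15, led by FSHB, MSMB and LHB, held 58.6 CPM (54.4 to 63.1) and 23.7 CPM (16.8 to 32.4). DLL3 was likewise higher in cluster 3, at 18.98 CPM (15.1 to 23.5) against 6.66 CPM (5.31 to 8.25) in the other clusters at 3 months and at 21.9 CPM (12.8 to 35.1) against 4.11 CPM (2.54 to 6.28) at 6 months. JAG1 went the other way at 3 months, with 25.4 CPM in cluster 3 and 34.8 CPM in the rest. HES1, at 11.2 and 5.78 CPM in the class, was under 0.5 of its level over all cells in both libraries (240.1 and 148 CPM). Its ratio of −0.79 turned to 0.07 under the looser cell filter.

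In endothelial-like cells 4 of the 10 genes were measured and 0 were called, against 2.65% of 7836 genes called higher, 2.88% called lower and 5.54% called apart; with 4 genes, 0 does not stand apart from these shares. The ratios were 0.52 (0.16 to 0.86) for DLL1, 0.34 (0.24 to 0.44) for HES1, 0.16 (−0.07 to 0.38) for NOTCH1 and −0.53 (−0.83 to −0.24) for JAG1. The 6-month library held a separate endothelial cluster of 147 cells, cluster 30, to which no 3-month cell belonged. Compared with cluster 0 of the same library (288 cells), cluster 30 held more NOTCH1 (187 against 78.6 CPM), DLL1 (98.2 against 32.3 CPM) and HES1 (733 against 511 CPM). JAG1, at 72.7 CPM (51.9 to 99.0) against 54.0 CPM (42.6 to 67.5), did not differ beyond counting error. The ratios of the whole class depended on this cluster. Without cluster 30 DLL1 was at −0.13 (−0.62 to 0.33), NOTCH1 at −0.31 (−0.62 to −0.02), HES1 at 0.18 and JAG1 at −0.67.

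**Figure D5:**
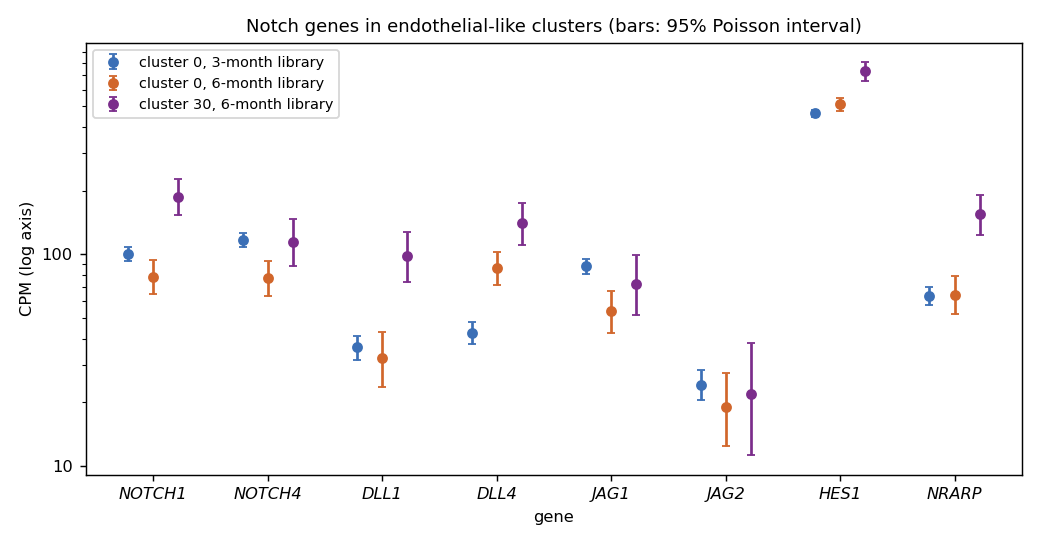
CPM on a log axis of 8 Notch genes (x axis) in endothelial-like cluster 0 of the 3-month library (blue), cluster 0 of the 6-month library (orange) and cluster 30 of the 6-month library (purple), with 95% Poisson intervals. NOTCH1, DLL1, HES1 and NRARP of cluster 30 lie above both cluster 0 values. DLL4 is already higher at 6 months in cluster 0 (86.3 against 42.5 CPM) and higher again in cluster 30 (140 CPM).

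Macrophage-like cells measured 7 of the 10 genes, and 0 were called, against 4.13% of 9509 genes called higher, 4.52% called lower and 8.65% called apart. JAG1 was higher at 6 months by 0.62 (0.37 to 0.87) and DLL1 by 0.72 (0.29 to 1.18), HES1 was at −0.36 (−0.46 to −0.26), turning to 0.23 with the mean of per-cell CPM, and NOTCH1 at 0.06 (−0.09 to 0.21). JAG1 and NOTCH1 were concentrated in cluster 20, led by APOBEC3A, S100A4 and ACOD1, with 38 and 221 cells. At 6 months JAG1 stood there at 164 CPM (144 to 185) against 28.02 CPM (24.9 to 31.4) in other macrophage-like cells, and NOTCH1 at 267 CPM (242 to 294) against 67.0 CPM (62.2 to 72.2). Without cluster 20 JAG1 was at 0.05 (−0.23 to 0.34), NOTCH1 at −0.36 (−0.53 to −0.19), and DLL1 was called higher at 1.35 (0.82 to 1.92). DLL1 was also called with the mean of per-cell CPM, at 1.17. HES1 was low in cluster 11, led by CXCL9, IDO1 and CXCL10 among named genes, at 33.6 CPM (19.6 to 53.8) against 222 CPM at 3 months and 27.0 CPM (22.6 to 32.0) against 258 CPM at 6 months. Neither cluster 11 nor cluster 20 had a macrophage marker among its first 10 genes. Their names rest on 7 markers (not CD14) and on 8 markers. Under the looser and the stricter cell filter a dendritic-like class was named, with 21 and 140 and with 12 and 109 cells. Whether its cells came from these clusters was not tested. Cluster 4 held 84.7% of the class at 3 months (1162 cells) but 22 cells at 6 months, and cluster 10 held 60.4% at 6 months (1045 cells) but 68 cells at 3 months. Within both, on library totals, HES1 was higher at 6 months, unlike in the class as a whole: by 1.30 (0.89 to 1.68; 221 to 544 CPM) in cluster 4 and by 1.33 (0.75 to 1.98; 114 to 287 CPM) in cluster 10. It was lower in cluster 20, at −1.29 (−1.68 to −0.90), and at −0.31 (−1.05 to 0.51) in cluster 11.

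Somatotroph-like cells, which make growth hormone, measured 2 of the 10 genes, and DLL3 was called lower, against 1.2% of 8688 genes called lower, 0.357% called higher and 1.55% called apart. Other scalings moved the class as a whole: 31 of its genes were called higher and 104 lower, but 98 and 65 on library totals, which raised the median of all genes from 0.01 to 0.22. DLL3 had 261 and 51 UMIs and a log2 ratio of −1.19 (−1.66 to −0.76). It missed the 2-fold limit at clustering resolution 2.0 (−0.94), on library totals without TMM (−0.98) and with the mean of per-cell CPM (−0.86). HES6 was at −0.59 (−0.99 to −0.20) on 239 and 71 UMIs, and stayed under 0.5 of its all-cell level at 3 months (22.7 against 47.9 CPM).

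Lactotroph-like cells, which make prolactin, measured 7 of the 10 genes with 0 called, against 1.53% of 12085 genes called higher, 2.55% called lower and 4.08% called apart. HES6 had 597 and 1500 UMIs (0.11, −0.03 to 0.25), DLL1 was at −0.53 (−0.76 to −0.29) and HEY1 at −0.54 (−0.72 to −0.36). The class lay in different clusters in the libraries: cluster 9 held 68.6% of it at 3 months and 1.72% at 6 months, and cluster 18 held 3.25% and 51.7%. Within these clusters, on library totals, DLL1 was at 0.10 (−0.93 to 0.97) and −0.31 (−1.45 to 1.15), and HEY1 at −0.49 (−1.41 to 0.30) and 0.21 (−0.85 to 1.53), with intervals that span 0. In cluster 1, with 13.4% and 20.9% of the class, DLL1 was at −1.43 (−2.08 to −0.75). Its first 10 genes held 3 lactotroph markers (DRD2, TRHR and POU1F1) and 3 thyrotroph markers (TRHR, DIO2 and POU1F1). With Notch genes allowed in clustering, a thyrotroph-like class of 287 and 403 cells was named. The lactotroph-like class then had 2394 and 5312 cells. Whether the thyrotroph-like cells lay in cluster 1 was not tested. Over the whole class NOTCH3 was at −1.12 (−1.67 to −0.57) on 56 and 60 UMIs. It was not called because its levels of 1.19 and 0.596 CPM were far below those over all cells (46.6 and 17.8 CPM). NOTCH3 was called lower without that condition. After free RNA was subtracted, DLL1 was called lower instead, at −1.04 (−1.31 to −0.77). HES1 was at 0.13 (−0.14 to 0.41), and at −0.56 (−0.87 to −0.26) without cluster 28. That cluster is led by CXCL10, CXCL9 and PLEK, genes known from immune responses and immune cells, and has none of the lactotroph markers among its first 10 genes. Its class name rests on 5 markers (PRL, POU1F1, DRD2, ESR1 and TRHR). It held 8 and 190 cells, and carried 170 of the 402 HES1 UMIs of the class at 6 months.

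Proliferating-like cells measured 4 of the 10 genes with 0 called, against 1.87% of 3365 genes called higher, 1.25% called lower and 3.12% called apart. HES1 had 372 and 547 UMIs (0.91, 0.72 to 1.10) and HEY1 46 and 68 UMIs (0.92, 0.35 to 1.49), both under the 2-fold limit. Both passed it on library totals without TMM, at 1.01 for HES1 and 1.02 for HEY1. NOTCH2 was at −0.04 and NOTCH3 at 0.14. This class is named from cell cycle genes and carried markers of several other classes. The stem or folliculostellate markers summed to 1528 CPM at 3 months and 1931 CPM at 6 months. Lactotroph markers summed to 214839 and 146390 CPM, and macrophage markers to 1616 and 2439 CPM. The part of this makeup in the ratios was not tested. In T or NK-like cells none of the 10 reached 100 UMIs, so 0 were called, where 10.7% of 3807 measured genes were called higher, 2.02% lower and 12.7% apart.

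A list of 49 further pathway genes, all present in the feature table, was read in the same classes. In stem or folliculostellate-like cells 44 were measured, 0 were called higher and 1 lower: HES2 at −1.93 (−2.27 to −1.61), of whose 457 and 92 UMIs 419 and 62 lay in cluster 5. The highest of the list there were the coactivator MAML2 (240.3 and 169 CPM), the gamma-secretase subunit PSENEN (154 and 150.3 CPM) and the regulator DTX3 (110 and 108 CPM). In endothelial-like cells 34 were measured. DLL4, the ligand known from endothelial tip cells and arteries, was called higher at 1.29 (1.02 to 1.56), from 42.5 to 101 CPM, and MAML3 lower at −1.01 (−1.45 to −0.59). MAML2 (230 and 183 CPM), PSENEN (195 and 177 CPM) and the protease ADAM10 (185 and 153 CPM) were the highest of the list there.

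In gonadotroph-like cells 39 of the 49 were measured, with HEY2 called higher at 2.15 (1.65 to 2.65) and 4 called lower: JAG2 at −2.20 (−3.36 to −1.23), HEYL at −1.15 (−1.58 to −0.74), MFNG at −1.18 (−1.81 to −0.61) and DTX3L, a ubiquitin ligase named here after its values were seen, at −1.003 (−1.69 to −0.38). Cluster 29 again stood apart, with HEY2 at 21.4 CPM (16.7 to 26.9) against 4.30 CPM (2.15 to 7.69) and HEYL at 3.31 CPM against 17.6 CPM at 6 months. In lactotroph-like cells 40 were measured, with DLL4 called higher at 1.80 (1.34 to 2.28) and MFNG lower at −2.52 (−2.95 to −2.11). In macrophage-like cells 32 were measured, with NRARP called higher at 1.04 (0.50 to 1.62) and MFNG lower at −1.74 (−2.32 to −1.16). None of 31 measured in somatotroph-like, 13 in T or NK-like and 8 in proliferating-like cells was called in either direction.

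Genes whose levels followed a member most closely were sought over 16 profiles, the 8 classes in both libraries, among 11462 genes with at least 1000 UMIs, by Pearson's r of log2(CPM + 1). The profiles share libraries and depth, so r is descriptive. Fibroblast-like cells, the class highest in NOTCH3 at 3 months (441 CPM), are not among the profiles. HES1 was followed most closely by ID3 (r = 0.98), LOC101106919 (0.97) and TRIM38 (0.97), and NOTCH3 by KRT19 (0.99), CRYM (0.99) and THBS4 (0.99). HES5 was followed by CPAMD8, PTGER1 and EFS (0.94, 0.93 and 0.93), and HEY1 by FZD7, ARHGAP36 and PDZK1IP1 (0.96, 0.96 and 0.95). HES6 was followed by SMIM4, SCN9A and CADM4 (0.93, 0.88 and 0.87), and its nearest Notch gene was DTX3, in place 5 of all genes.

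NOTCH1 was followed by PIEZO1, LGALS9 and ARHGEF2 (0.99, 0.98 and 0.98), with LFNG its nearest Notch gene in place 46. JAG1 was followed by HACD2, LPP and GALNT10 (0.97, 0.97 and 0.96), with MAML2 in place 17. NOTCH2 was followed by FGFRL1, NEK6 and PTGR1 (each 0.94), DLL1 by DNAJC3, PDIA5 and MRAS (0.90, 0.90 and 0.88), and DLL3 by GSS, ANKEF1 and FGGY (each 0.87).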

How the data were processed

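Raw UMI counts by gene and barcode, for 1 library per age, are the authors' deposited values. They came from Cell Ranger, version 5.0.0 by the submitters' processing notes and 5.0.1 per the file headers. The deposited feature and barcode lists hold other, non-numeric entries. The genome build, annotation and chemistry were not given in the sources used here. RefSeq gene names (assembly ARS-UI_Ramb_v3.0, names only) matched 22726 of 23141 identifiers and replaced 439 placeholder symbols.

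Cells needed 500 genes and 1000 UMIs. Scrublet marked 922 (5.63%) and 570 (4.30%) doublets, which were removed. In scanpy 1.11.5, after scaling to 10000 per cell and taking logs, 3000 variable genes gave 30 components, 15 neighbours and Leiden clusters at resolution 1.0. Hormone, mitochondrial, ribosomal protein and all 59 Notch pathway genes were kept out of them. Clusters were named from 122 listed markers of 18 classes. A marker counted when 1.5-fold above the median cluster and found in 10% of cells, and a name needed 3 markers and a mean log2 fold of 0.7. How markers were scored was settled only once the clusters were known. The unnamed clusters hold 96 and 3 cells.

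Counts were summed per class and compared on edgeR 4.0.16 TMM sizes, without a test, since each age had 1 library. Ratios have exact conditional binomial intervals, shares Clopper-Pearson intervals and levels Poisson intervals, at 95%, all of which treat UMIs or cells as independent. The ratio step was tested on simulated data. Alternatives changed the cell filter, doublet removal, clustering, scaling, UMI minimum, free RNA and call rule. The members, lists and rules were chosen with earlier results of these data known. Further genes are named when called in a class, up to 4 per class, or among the 3 highest in stem or folliculostellate-like and endothelial-like cells, and beside cluster 5, cluster 29 and cluster 30 after their values were seen. 1 gene is not reported here.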

Additional observations from a re-analysis of the deposited data

Results flagged for a closer look

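In 4 genes the ratio between libraries had opposite signs in a pair of classes, with intervals on either side of 0. None of these differences was tested, since each age had 1 library. DLL1 was at 1.43 in gonadotroph-like and at −0.53 in lactotroph-like cells, a difference of 1.95 on the log2 scale, and DLL1 could not be measured in gonadotroph-like cells without cluster 29. JAG1 was at 0.62 in macrophage-like and at −0.66 in stem or folliculostellate-like cells, a difference of 1.27, and at 0.05 in macrophage-like cells without cluster 20. HES1 was at 0.91 in proliferating-like and at −0.36 in macrophage-like cells, a difference of 1.27, and turned to 0.23 in macrophage-like cells with the mean of per-cell CPM. Proliferating-like cells carried markers of several classes, whose sums differed between the libraries. Within macrophage-like clusters 4 and 10, HES1 was at 1.30 and 1.33, the same sign as in proliferating-like cells. HEY1 was at 0.49 in stem or folliculostellate-like and at −0.54 in lactotroph-like cells, a difference of 1.03. In lactotroph-like cells it was at −0.49 in cluster 9, 0.21 in cluster 18 and −0.07 in cluster 24, with intervals that span 0, and subtracting free RNA left 0 HEY1 UMIs at 6 months.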

How the results depend on the processing

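No paired analysis was possible because each age had 1 library and the labels give no replicate numbers. Of the alternatives, 6 leave out a cluster and were chosen after seeing the data. Their ratios keep the TMM factors of the whole class. Of the log2 ratios recomputed, 470 stayed within their counting interval, 61 moved and 1 called ratio turned: HES6 in stem or folliculostellate-like cells without cluster 5, at 0.89. The UMI minima of 30 and 3 and the rule without the all-cell condition do not enter a ratio. Under each of them the 40 ratios stayed the same by construction. Of the counts of called members, 195 stayed and 15 moved. The count lower in somatotroph-like cells was 0 in place of 1 at resolution 2.0, on library totals and with the mean of per-cell CPM. With that mean, 1 gene in place of 2 was lower in stem or folliculostellate-like cells, 0 in place of 1 in gonadotroph-like cells, and 1 in place of 0 was higher in macrophage-like cells. In lactotroph-like cells 1 in place of 0 was lower after subtracting free RNA (DLL1) and without the condition on the all-cell level (NOTCH3). In proliferating-like cells 2 in place of 0 were higher on library totals, and 1 in place of 0 was lower with a minimum of 3 UMIs. Without cluster 5, 1 gene was higher (DLL1, 1.78, on 27 and 75 UMIs) and 1 lower in stem or folliculostellate-like cells. Without cluster 29, 0 were higher and 0 lower in gonadotroph-like cells, and without cluster 20, 1 was higher in macrophage-like cells. The cause of these differences was not tested. Scaling also moved the split of all called genes: on library totals 206 were higher and 618 lower in gonadotroph-like cells (with TMM 294 and 407) and 274 and 257 in lactotroph-like cells (with TMM 185 and 308), and on totals without hormone genes 573 and 290 in macrophage-like cells (with TMM 393 and 430). Free RNA was higher at 6 months, so members under 0.5 of their all-cell level, as most in lactotroph-like cells, have little weight: HEY1 there went from −0.54 to −7.52 or below after subtraction, which left 0 UMIs at 6 months (counted as 3). Under the stricter filter doublet calls of the main filter were used, since Scrublet's own threshold did not work there.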
